A study of Mus musculus with 6 samples.

Results

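Glucose enters most cells through facilitative transporters of the Slc2a (GLUT) family and is trapped by hexokinases as glucose phosphate. Phosphofructokinase then commits it to glycolysis, and lactate dehydrogenase and pyruvate dehydrogenase kinase bear on whether the resulting pyruvate leaves the cell as lactate or enters the mitochondria. Endothelium is known for relying on glycolysis, and the main transporter of endothelial cells is GLUT1, the product of Slc2a1.

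The genes of this route examined here were 10 of the 19937 genes measured: the transporters Slc2a1 and Slc2a3, the hexokinases Hk1 and Hk2, the phosphofructokinase subunits Pfkl, Pfkm and Pfkp, the bifunctional regulator Pfkfb3, Ldha and Pdk1. They were chosen by function and symbol, with earlier results of these data known. Each was read from a probe set that the platform annotation ties to 1 gene. Cells came from the AGM (aorta/gonad/mesonephros) region of E11.5 mouse embryos of the CD1 strain, E being the embryonic day, where the first definitive haematopoietic stem cells arise. All were sorted as positive for CD31, an endothelial and progenitor surface antigen, and negative for the leukocyte antigen CD45 and the red cell antigen Ter119. The c-kit-positive population (3 arrays) was set against the c-kit-negative population (3 arrays), c-kit being the receptor for stem cell factor. All samples were labelled as time T0, and no genetic change or drug treatment was labelled. The replicates are labelled as biological, without a word on how many embryos entered each, and p-values therefore reflect the scatter of these arrays.

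Values are log2 RMA values: a difference of 1 is a 2-fold change on the array, and levels of different probe sets are not comparable. Array medians lay between 5.42 and 5.52. Kit, whose protein separated the populations, averaged 9.55 ± 0.03 on the c-kit-positive arrays, against 8.22 ± 0.04 on the c-kit-negative arrays (SD, n = 3 each), as a check of the labels. Of 13 primordial germ cell markers 11, and of 10 haematopoietic progenitor markers 5, were higher in the c-kit-positive cells (limma, all 6 arrays). Over all genes tested this share was 2.71%. All 13 germ cell markers had positive differences, and the 10 progenitor markers held 8 positive and 2 negative ones.

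Of the 10 genes, Slc2a1 fell in c-kit-positive cells, by 2.52-fold, and the other 9 did not pass the test in either direction. Slc2a3, the high-affinity glucose transporter known from neurons, platelets and white cells, averaged 8.30 ± 0.30 on the c-kit-positive arrays, against 7.90 ± 0.50 on the c-kit-negative arrays (SD, n = 3 each), and did not pass. Hexokinases, phosphofructokinase subunits, Pfkfb3, Ldha and Pdk1 differed by between -0.22 and 0.20 on the log2 scale. The test was limma across all 19937 genes with Benjamini-Hochberg adjustment, and an adjusted p under 0.05 was called. It called 7.41% of all genes, 2.71% as higher and 4.7% as lower, so that 1 of 10 is near the background share. At an unadjusted p under 0.05, which 21% of all genes reached, 1 of the 10 genes passed, again Slc2a1. The median difference of the 10 genes was -0.05, beside 0.07 over all genes tested.

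**Figure D1:**
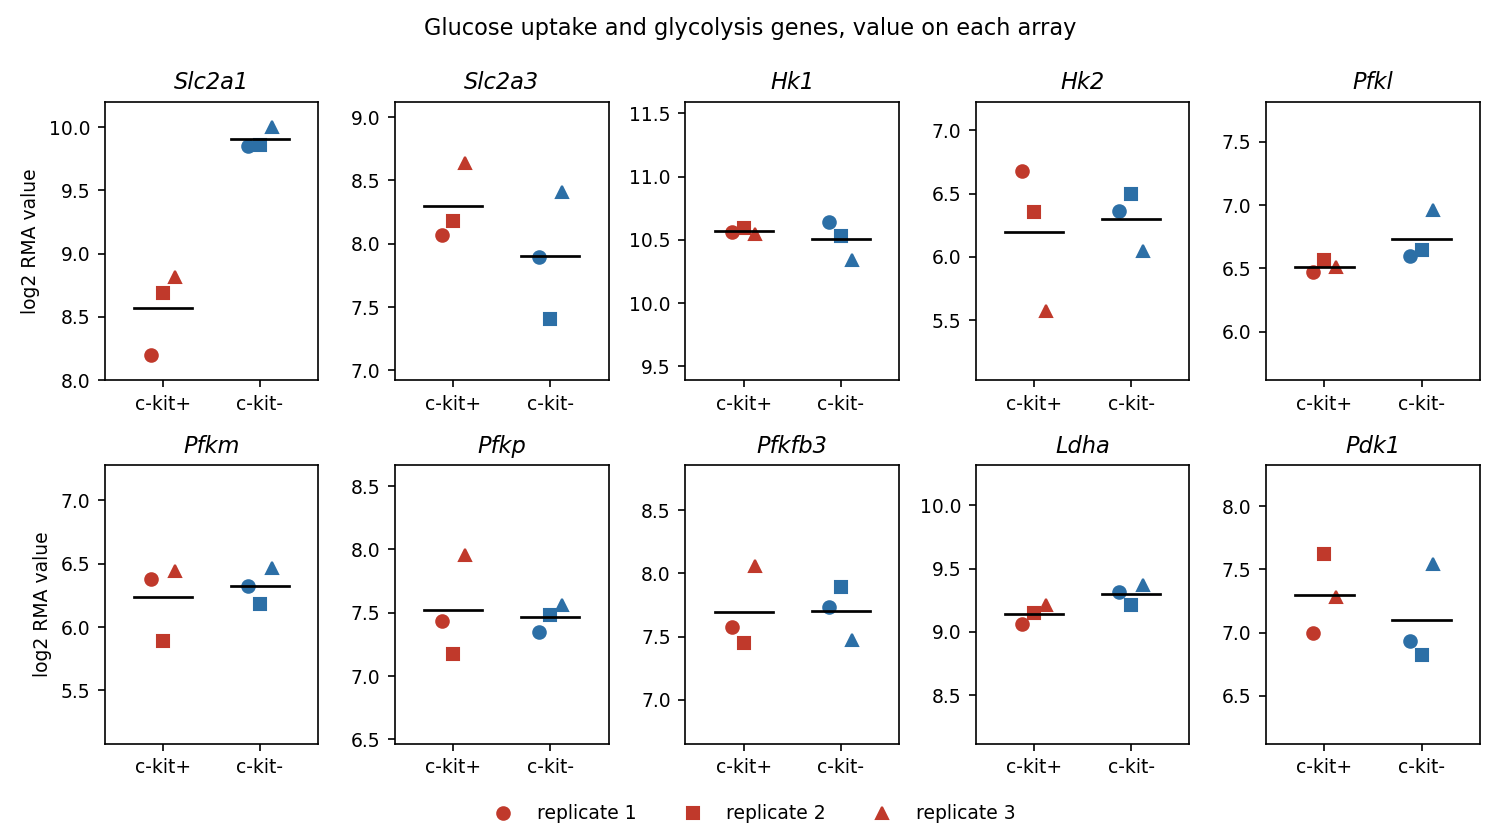
Value of each of the 10 genes on each array, with c-kit-positive arrays (red) left of c-kit-negative arrays (blue), marker shape for the replicate number and a black line at each group mean; the vertical axis is the log2 RMA value and spans the same width in every panel. Slc2a1 is the panel with a wide gap, with c-kit-positive arrays at 8.20 to 8.81 and c-kit-negative arrays at 9.85 to 9.997.

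Slc2a1 (probe set 10507594) was at 8.20, 8.69 and 8.81 on c-kit-positive arrays 1, 2 and 3, against 9.85, 9.86 and 9.997 on c-kit-negative arrays 1, 2 and 3. The groups did not overlap, and the c-kit-positive arrays were spread over 0.61 where the c-kit-negative ones lay within 0.15. The lowest c-kit-positive value was that of replicate 1. The difference was -1.33 ± 0.18 (SE), with a 95% confidence interval of -1.75 to -0.92 and an adjusted p of 0.00326 (limma). In folds this is 2.52-fold lower, with an interval of 1.90 to 3.36. Among the 937 genes called lower, 377 or 40.2% fell at least as far. Leaving out any 1 array kept the call, with differences between -1.46 and -1.15 and adjusted p between 0.00634 and 0.0174 (limma). A linear model without variance moderation gave the same difference with an adjusted p of 0.0758.

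Several cell type markers moved the same way as Slc2a1. Endothelial markers were lower in c-kit-positive cells for 14 of 14 genes, and their summed linear signal ran from 1480 to 1655 on c-kit-positive and from 8794 to 9473 on c-kit-negative arrays. One of them, the VEGF receptor gene Kdr, was 29.3-fold lower (adjusted p = 4.84e-06, limma). The summed signals here and below weigh the brightest probe sets most, so 1 or a few genes can rule the sum of a list. Of 9 erythroid markers measured, 6 had a negative and 3 a positive difference. Of these 9, 3 were called lower and 1 higher, with sums of 942 to 1028 on c-kit-positive and 2252 to 5566 on c-kit-negative arrays. The 3 that fell were the embryonic globins Hbb-y, Hba-x and Hbb-bh1, and the 1 that rose was the transferrin receptor Tfrc, a call lost without replicate 1 or 3 of the c-kit-positive or replicate 1 or 2 of the c-kit-negative cells (adjusted p up to 0.0731, limma). Mesenchymal and smooth muscle markers fell for 6 of 9 genes, with sums of 415 to 466 on c-kit-positive and 981 to 1248 on c-kit-negative arrays. Of 10 macrophage markers Csf1r, Ctss and Tyrobp fell, with sums of 1341 to 1438 on c-kit-positive and 2039 to 3409 on c-kit-negative arrays. Of 5 platelet markers Pf4 and Ppbp fell, with sums of 344 to 472 on c-kit-positive and 886 to 2648 on c-kit-negative arrays. Tyrobp did not pass when any 1 array was left out, nor Ctss and Ppbp without c-kit-positive replicate 1, nor Pf4 without c-kit-negative replicate 2 or 3 (adjusted p between 0.0511 and 0.131, limma). Of 6 neural markers Stmn2 fell (-1.63 ± 0.14, SE; adjusted p = 0.000302, limma), with sums of 223 to 257 on c-kit-positive and 302 to 392.3 on c-kit-negative arrays. The 6 neural markers held 3 negative and 3 positive differences. Of 6 skeletal muscle precursor markers Myog fell (-0.64 ± 0.15, SE; adjusted p = 0.0336, limma), with sums of 238 to 245 on c-kit-positive and 246 to 279 on c-kit-negative arrays. The 6 muscle markers held 4 negative and 2 positive differences. The call on Myog was lost without any 1 array other than c-kit-negative replicate 1 (adjusted p up to 0.106, limma). Germ cell markers moved the other way, with sums of 7568 to 9171 on c-kit-positive and 3249.7 to 4526 on c-kit-negative arrays. No value on these arrays was 0, and the table carries no detection calls. The part of these cell types in the fall of Slc2a1 was not tested, and in sorted bulk RNA fewer cells of a type and less RNA per cell cannot be told apart.

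The promoter of Slc2a1 is shown with those of Hk2 and Ldha, genes of the same route that did not pass, because each carries the core letters recognised by hypoxia-inducible factors. Each sequence is the 250 bases before the RefSeq transcription start in GRCm38.p6, read 5′ to 3′ along the gene. Capitals mark ACGTG on either strand (CACGT when it lies on the opposite strand), which includes the E-box CACGTG, a site of Myc family proteins, where both overlap. Slc2a1 lies at chr4:119108495-119108744 on the plus strand, Hk2 at chr6:82774455-82774704 on the minus strand and Ldha at chr7:46845554-46845803 on the plus strand.
Slc2a1: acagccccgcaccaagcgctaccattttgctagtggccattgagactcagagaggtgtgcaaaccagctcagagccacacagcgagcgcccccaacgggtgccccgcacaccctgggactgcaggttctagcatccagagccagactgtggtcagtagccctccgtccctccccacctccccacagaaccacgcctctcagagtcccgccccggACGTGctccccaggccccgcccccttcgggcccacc
Hk2: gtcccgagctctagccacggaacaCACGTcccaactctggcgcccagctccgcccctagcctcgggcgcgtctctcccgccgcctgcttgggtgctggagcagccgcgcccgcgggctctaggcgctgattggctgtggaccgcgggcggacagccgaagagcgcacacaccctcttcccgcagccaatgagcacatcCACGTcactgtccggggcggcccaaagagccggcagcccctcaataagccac
Ldha: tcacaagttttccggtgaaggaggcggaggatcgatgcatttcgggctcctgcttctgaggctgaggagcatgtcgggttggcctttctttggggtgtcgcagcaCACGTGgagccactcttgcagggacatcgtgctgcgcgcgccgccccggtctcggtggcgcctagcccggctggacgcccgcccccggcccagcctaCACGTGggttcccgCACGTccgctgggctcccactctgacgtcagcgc
In this window Slc2a1 held 1 match, 36 bases before the start. Hk2 held 2, at 226 and 52 bases, and Ldha held 5, of which 4 are overlapping matches within 2 CACGTG sequences. Among all 32851 promoter windows given, 16.6% held ACGTG on either strand and 6.02% held CACGTG. Of the 10 genes 9 matched a promoter entry, with 16 windows, and 7 of these windows, belonging to 5 genes, held ACGTG. A match is a description of the sequence, and it occurred in promoters of the gene that fell and of genes that did not pass the test.

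Slc2a3 (probe set 10547641) was at 8.07, 8.18 and 8.64 on c-kit-positive arrays 1, 2 and 3, against 7.89, 7.40 and 8.41 on c-kit-negative arrays 1, 2 and 3. The groups overlapped, and replicate 3 was the highest array of either group. The difference was 0.39 ± 0.26 (SE), with a 95% confidence interval of -0.21 to 0.998 and an adjusted p of 0.451 (limma). A difference as large as that of Slc2a1 in the same direction lies outside this interval, whereas a rise of up to 0.998 lies within it.

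Slc2a1 and Slc2a3 were also set against each other on the same array, which cancels what is fixed to each probe set. Slc2a1 minus Slc2a3 was 0.13, 0.51 and 0.17 on c-kit-positive arrays 1, 2 and 3, against 1.96, 2.46 and 1.59 on c-kit-negative arrays 1, 2 and 3. The balance thus lay lower on every c-kit-positive array, with a mean of 0.27 ± 0.21 against 2.001 ± 0.44 on c-kit-negative arrays (SD, n = 3 each) and a shift of -1.73. This shift is the difference of Slc2a1 (-1.33) less that of Slc2a3 (0.39), so it adds no evidence beyond those values. An exact two-sided permutation test gave p = 0.1 (0.4 adjusted over the 4 balances computed), and 0.1 is the smallest that 3 against 3 arrays allow. The other balances overlapped between the groups. Hk2 minus Hk1 shifted by -0.17 (exact permutation p = 0.9), Pfkp minus Pfkl by 0.28 (exact p = 0.4) and Pfkm minus Pfkl by 0.13 (exact p = 0.7), or 0.9, 0.8 and 0.9 after adjustment. For Hk1 the brighter of its probe sets, 10414661, was used.

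**Figure D2:**
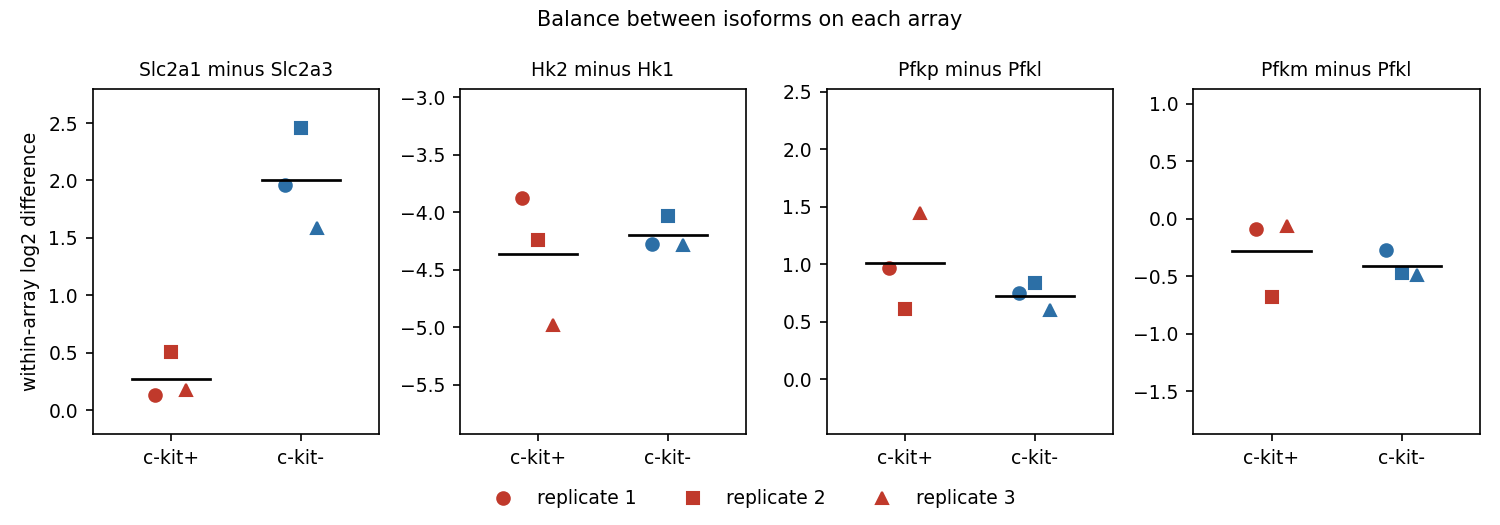
Within-array log2 difference between 2 isoforms (vertical axis, same span in each panel) on c-kit-positive arrays (red, left) and c-kit-negative arrays (blue, right), with marker shape for the replicate number and black lines at the means. Slc2a1 minus Slc2a3 lies at 0.13 to 0.51 on c-kit-positive and 1.59 to 2.46 on c-kit-negative arrays, while the 3 other balances overlap.

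Hexokinases followed no common direction. Hk1, the form most tissues use, was at 10.56, 10.60 and 10.55 on c-kit-positive arrays 1, 2 and 3, against 10.64, 10.53 and 10.34 on c-kit-negative arrays 1, 2 and 3. The c-kit-positive values lay inside the c-kit-negative range, and the difference was 0.06 ± 0.14 (SE; interval -0.25 to 0.38; adjusted p = 0.839, limma). This was the brighter of the 2 probe sets of Hk1 (10414661), and the annotation ties it to 1 deposited sequence. The other probe set (10369541), tied to 8 sequences, averaged 6.92 ± 0.34 on the c-kit-positive arrays, against 6.94 ± 0.17 on the c-kit-negative arrays (SD, n = 3 each), a difference of -0.015. The 2 probe sets thus differed in sign, and both differences were smaller than their SE. Which of them reads Hk1 better was not tested.

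Hk2, the inducible hexokinase of muscle, fat and growing cells, was at 6.68, 6.35 and 5.57 on c-kit-positive arrays 1, 2 and 3, against 6.36, 6.50 and 6.05 on c-kit-negative arrays 1, 2 and 3. Replicate 3 of the c-kit-positive cells was the lowest array, and the range within that population was 1.11. The difference between the populations was -0.10 ± 0.27 (SE; interval -0.73 to 0.52; adjusted p = 0.874, limma). Without c-kit-positive replicate 3 it was 0.21, a change of sign (adjusted p = 0.620, limma). Hk2 had the largest residual spread of the 10 genes, above that of 92.4% of all genes tested.

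Phosphofructokinase is a tetramer built from liver-type (Pfkl), muscle-type (Pfkm) and platelet-type (Pfkp) subunits. Pfkl was at 6.47, 6.57 and 6.51 on c-kit-positive arrays 1, 2 and 3, against 6.60, 6.65 and 6.96 on c-kit-negative arrays 1, 2 and 3. Its groups did not overlap, with 6.57 the highest c-kit-positive and 6.60 the lowest c-kit-negative value, but the difference of -0.22 ± 0.15 (SE; interval -0.55 to 0.11) did not pass (adjusted p = 0.443, limma). Slc2a1 and Pfkl were the 2 of 10 genes without overlap, a share below the 26.8% of all genes tested whose 3 values did not overlap. Without c-kit-negative replicate 3, the highest array, the difference of Pfkl was -0.11 (adjusted p = 0.758, limma).

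Pfkm was at 6.38, 5.89 and 6.44 on c-kit-positive arrays 1, 2 and 3, against 6.33, 6.18 and 6.47 on c-kit-negative arrays 1, 2 and 3. In both populations replicate 2 was the lowest, and the difference was -0.09 ± 0.18 (SE; interval -0.50 to 0.32; adjusted p = 0.828, limma). Pfkp was at 7.44, 7.18 and 7.95 on c-kit-positive arrays 1, 2 and 3, against 7.34, 7.48 and 7.56 on c-kit-negative arrays 1, 2 and 3. The c-kit-positive values enclosed all c-kit-negative ones, with replicate 3 the highest, and the difference was 0.06 ± 0.20 (SE; interval -0.41 to 0.53; adjusted p = 0.904, limma).

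Pfkfb3 makes the fructose bisphosphate that activates phosphofructokinase, and is known for driving glycolysis in sprouting vessels. It was at 7.58, 7.45 and 8.06 on c-kit-positive arrays 1, 2 and 3, against 7.73, 7.89 and 7.48 on c-kit-negative arrays 1, 2 and 3. The group means were 7.70 ± 0.32 and 7.70 ± 0.21 (SD, n = 3 each), and the difference of -0.0057 was the smallest of the 10 (interval -0.45 to 0.44; adjusted p = 0.992, limma).

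Ldha, which converts pyruvate to lactate, was at 9.06, 9.15 and 9.22 on c-kit-positive arrays 1, 2 and 3, against 9.31, 9.21 and 9.37 on c-kit-negative arrays 1, 2 and 3. It was the most even of the 10 genes within groups, with a residual spread above that of 5.00% of all genes tested. The groups touched at 9.22 in c-kit-positive replicate 3 and 9.21 in c-kit-negative replicate 2, and the difference was -0.16 ± 0.13 (SE; interval -0.45 to 0.14; adjusted p = 0.546, limma). Pdk1, a kinase that inactivates pyruvate dehydrogenase, was at 6.99, 7.62 and 7.28 on c-kit-positive arrays 1, 2 and 3, against 6.93, 6.83 and 7.54 on c-kit-negative arrays 1, 2 and 3. Its groups overlapped, with a difference of 0.20 ± 0.23 (SE; interval -0.33 to 0.73; adjusted p = 0.691, limma).

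**Figure D3:**
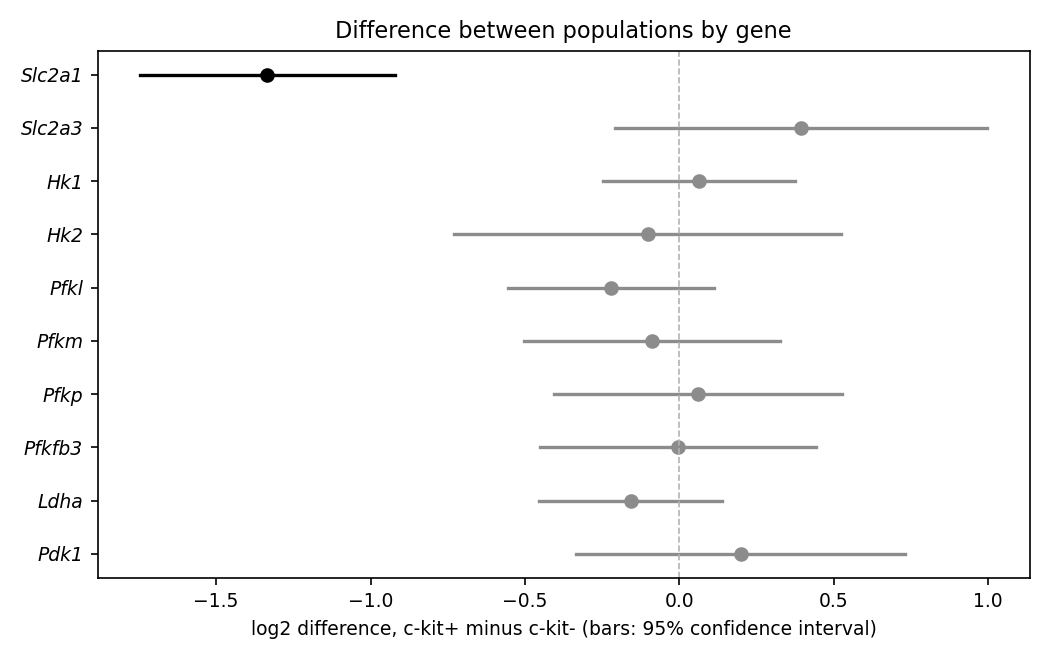
Log2 difference, c-kit-positive minus c-kit-negative, of each of the 10 genes (points, 3 arrays per population) with its 95% confidence interval from limma (bars); black marks an adjusted p under 0.05 and grey the rest. The interval of Slc2a1, -1.75 to -0.92, lies wholly below 0, and those of the other 9 genes include 0.

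The rest of the route was read from 10 lists of related genes, 119 distinct genes in all. Of these, 3 fell and 1 rose, against 7.41% of all genes called. None of the 17 other measured glycolytic enzymes and lactate carriers passed (limma; 3 at an unadjusted p under 0.05), although Slc16a1 did in 2 of 19 alternative settings. Their median difference was -0.01, within a range of -0.43 to 1.36. The top of that range was Slc16a1, which carries lactate and pyruvate across the membrane. Slc16a1 was at 7.82, 6.91 and 7.34 on c-kit-positive arrays 1, 2 and 3, against 6.52, 5.12 and 6.35 on c-kit-negative arrays 1, 2 and 3. Its groups did not overlap, yet the difference of 1.36 ± 0.38 (SE) did not pass (adjusted p = 0.0699, limma). It passed without the dimmest 50 percent of genes (adjusted p = 0.0491, limma) and with the replicate number as a block, and over all alternatives its adjusted p ran from 0.0091 to 0.295. The c-kit-positive arrays were spread over 0.92 and the c-kit-negative ones over 1.40.

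Among 11 other glucose and hexose transporters 0 passed (limma; 3 at an unadjusted p under 0.05), with a median of 0.04. The smallest p was that of the fructose transporter Slc2a5, which differed by 0.38 ± 0.14 (SE; adjusted p = 0.163, limma). The 3 measured genes of the Pfkfb family and Tigar held 0 calls (limma; 1 at an unadjusted p under 0.05), and Pfkfb2 differed by 0.67 ± 0.22 (SE; adjusted p = 0.115, limma). Slc2a1 was thus the gene called among the 13 transporters of both groups.

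Genes that bear on pyruvate entry into the mitochondria had a median of 0.31, with 0 of 12 past the threshold (limma; 4 at an unadjusted p under 0.05, all with positive differences). The list mixes genes for this entry with kinases of the Pdk1 family, which act against it. Of the 4, 1 was such a kinase gene, so they do not share 1 direction of effect on pyruvate entry. Pdha1, the catalytic subunit of pyruvate dehydrogenase, was at 9.49, 9.09 and 9.13 on c-kit-positive arrays 1, 2 and 3, against 8.26, 8.83 and 8.53 on c-kit-negative arrays 1, 2 and 3. These did not overlap, with a difference of 0.70 ± 0.19 (SE; adjusted p = 0.0644, limma). Pdha1 passed without the dimmest 50 percent of genes (adjusted p = 0.0490, limma) and with an intensity trend and robust prior (0.0499), so that 1 of the 12 was then called, and over all alternatives its adjusted p ran from 0.0490 to 0.217. Of 19 tricarboxylic acid cycle genes 0 passed (limma; 6 at an unadjusted p under 0.05), with a median of 0.15 and the smallest p at Suclg1, a subunit of succinyl-CoA ligase, which differed by 0.78 ± 0.24 (SE; adjusted p = 0.104, limma). Of 13 genes of glycogen and gluconeogenesis 0 passed (limma; 1 at an unadjusted p under 0.05), and Pygb, brain-type glycogen phosphorylase, differed by -0.66 ± 0.23 (SE; adjusted p = 0.144, limma).

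In the pentose phosphate pathway, which branches from glucose phosphate, 1 of 9 genes fell (limma; 4 at an unadjusted p under 0.05, 3 of them with positive differences). It was Pgd, phosphogluconate dehydrogenase, at 7.86, 7.97 and 8.10 on c-kit-positive arrays 1, 2 and 3, against 8.51, 8.60 and 8.53 on c-kit-negative arrays 1, 2 and 3. The groups lay apart, and the difference was -0.57 ± 0.13 (SE; 1.49-fold lower; adjusted p = 0.0358, limma). The call was lost when any 1 of the 6 arrays was left out, with adjusted p between 0.0548 and 0.107 (limma).

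Hypoxia-inducible factors are transcription factors known to induce Slc2a1 and many glycolytic genes. Of their 10 machinery genes 4 had an unadjusted p under 0.05 (limma), 1 with a positive and 3 with a negative difference. After adjustment 1 fell: Epas1, which encodes HIF-2alpha, the form prominent in endothelium. It was at 7.50, 6.38 and 6.20 on c-kit-positive arrays 1, 2 and 3, against 8.61, 8.73 and 8.69 on c-kit-negative arrays 1, 2 and 3. All c-kit-positive arrays were lower, with replicate 1 nearest to the c-kit-negative ones, and the difference was -1.99 ± 0.31 (SE; 3.96-fold lower; adjusted p = 0.00633, limma). The model without variance moderation gave Epas1 an adjusted p of 0.131. Hif1a, the widely expressed form chosen for mention once its value was known, averaged 8.41 on c-kit-positive arrays, against 8.51 on c-kit-negative arrays (adjusted p = 0.767, limma).

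Of 17 hypoxia-induced genes outside glycolysis 1 fell and 1 rose (limma; 5 at an unadjusted p under 0.05, 3 of them with positive differences), with a median of 0.02. P4ha1, a collagen prolyl hydroxylase subunit, was 2.16-fold lower (-1.11 ± 0.21, SE; adjusted p = 0.016, limma). Without c-kit-positive replicate 1 or 3 P4ha1 did not pass (adjusted p of 0.0585 and 0.0576, limma). Higd1a, a mitochondrial protein, was 1.55-fold higher by its brighter probe set, 10492860 (0.63 ± 0.15, SE; adjusted p = 0.044, limma). The other probe set of Higd1a, 10597871, differed by 0.03, and which of them reads the gene better was not tested. The call on Higd1a was lost without any 1 array other than c-kit-negative replicate 3 (adjusted p up to 0.141, limma). This call was also lost with median centring or quantile normalization. It was lost as well with the mean of the probe sets (difference 0.33) or the most variable one (0.03). Among 9 Myc family genes and partners 0 passed (limma; 3 at an unadjusted p under 0.05), and Mlxipl, a glucose-responsive transcription factor, differed by 0.39 ± 0.14 (SE; adjusted p = 0.145, limma).

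**Figure D4:**
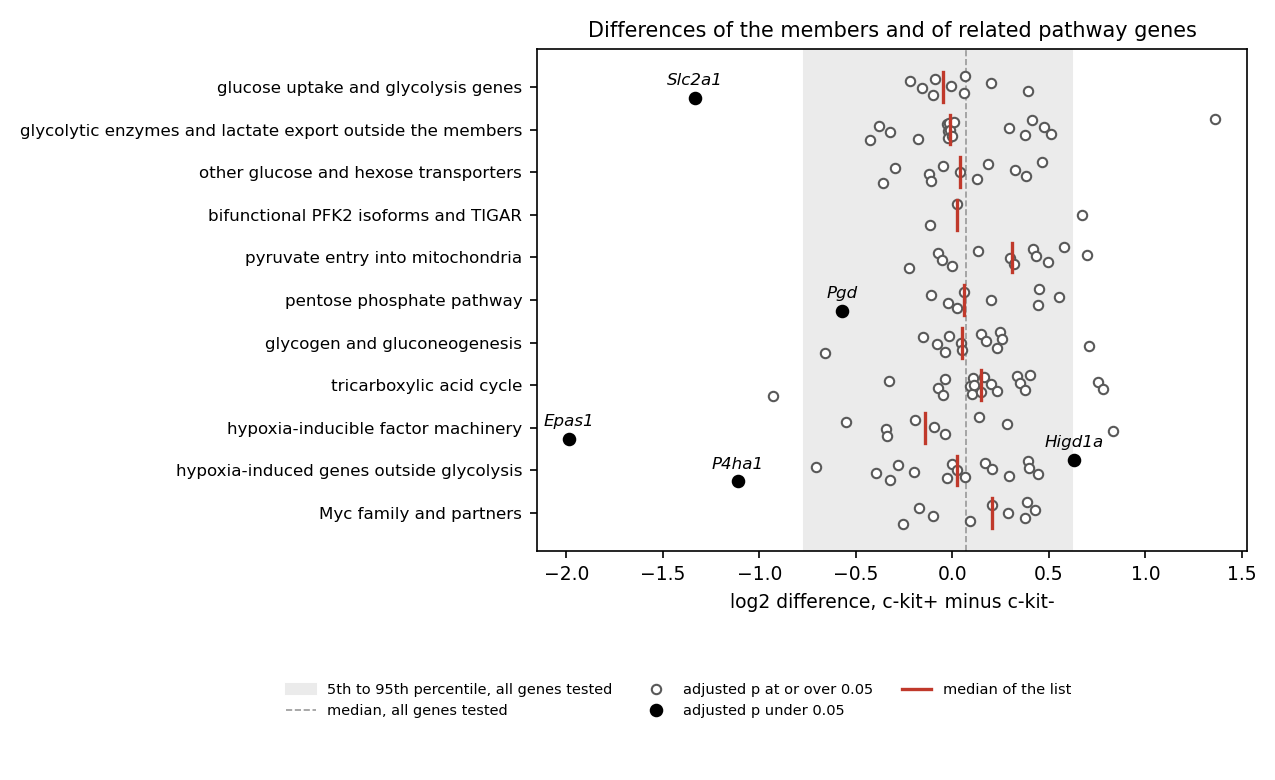
Log2 difference, c-kit-positive minus c-kit-negative, of the 10 genes (top) and of the 10 lists of related genes below, 1 point per gene, filled where the adjusted p was under 0.05, with a red line at each list's median; the grey band spans the 5th to 95th percentile of all genes tested and the dashed line is their median of 0.07. The named filled points are Slc2a1, Pgd, Epas1 and P4ha1 on the left and Higd1a on the right.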

How the data were processed

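The authors deposited log2 values from RMA, per the submitters' processing notes. RMA corrects for background, gives all arrays a common distribution and combines probes into probe sets. Its version, settings and genome build were not given in the sources used here. That the scale is log2 was inferred from the values (1.22 to 13.7). RNA was amplified from a small input before labelling, per the labels' protocols, which can compress ratios, as can array background for dim genes. The number of arrays limits the precision.

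Of 34760 probe sets, 21640 had 1 gene symbol, 1321 several and 11799 were not listed. For genes with several probe sets, the one with the highest mean over the 6 arrays was used. Some list genes, Gapdh and Eno1 among them, had no probe set of 1 gene and were not analysed here. The 19937 genes were fitted with limma 3.58.1 in R 4.3.3 (lmFit, eBayes, two-sided, no filter, no block), checked on simulated arrays. Named genes are the 10 members and, from each pathway list, up to 4 past the threshold or the one of smallest p; the same rule held for marker lists, of which the text names only some genes. Members and lists were chosen with earlier results of these data known. Replicate numbers were not used to pair arrays in the main fit. Deviations from the group mean correlated at 0.00071 to 0.059 between arrays of the same number, and at -0.057 to 0.036 between the others. With 3 arrays per group these values cannot show that pairing was absent. Figures were drawn with matplotlib 3.10.9.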

Additional observations from a re-analysis of the deposited data

How the results depend on the processing

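The result that 1 of the 10 genes, Slc2a1, was called held in 18 of 19 alternatives. It became 0 without variance moderation, where 66 genes in all were higher and 216 lower, and 0 pathway genes were called. The calls on all genes were 151 higher and 524 lower with all probe sets tested, and 131 higher and 499 lower at an adjusted p under 0.01. Of the pathway genes, 0 rose and 1 fell in both of these settings, 0 rose with median centring or quantile normalization, 2 with an intensity trend and robust prior, and 4 without the dimmest 50 percent of genes. With 1 array left out the calls ran from 276 to 369 higher and 670 to 745 lower over all genes, and from 0 to 2 higher and 1 to 3 lower in the pathway lists. Pathway genes that gained a call, named for that after their values were seen, were Slc16a1, Pdha1 and Egln3 without the dimmest 50 percent, Pdha1 with the trend, Bnip3 with the mean or the most variable of its probe sets, and, with 1 array left out, Egln3 (c-kit-positive replicate 2), Idh1 (lower; c-kit-negative replicate 2) and Rpia (c-kit-negative replicate 3). The cause of these changes was not tested. Dropping or adding features alters both the number of p-values adjusted together and the moderated SE, and fewer arrays give less precision.

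Among the 10 genes, 5 changed sign under some alternative, and none of these 5 passed in any of the 19 (limma). Hk1 was at -0.0011 after quantile normalization and -0.015 with the most variable probe set. With 1 array left out Hk1 ran from -0.019 to 0.13, Hk2 from -0.34 to 0.21, Pfkm from -0.19 to 0.085, Pfkp from -0.16 to 0.23 and Pfkfb3 from -0.19 to 0.12. The shift of Hk2 minus Hk1 ran from -0.41 to 0.14, and that of Slc2a1 minus Slc2a3 stayed below 0. With the replicate number as a block, Slc2a1 differed by -1.33 (adjusted p = 0.00599, limma), 1 of the 10 genes was called, and 476 genes were higher and 879 lower; Pgd, Higd1a and Myog lost their calls, and Slc16a1 gained one (adjusted p = 0.0091, limma). The numbers share no stated origin, and not every array correlated best with its own number.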
